A study of Mus musculus with 6 samples.

Results

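Mucus genes and the enzymes that build the sugar chains of mucins were followed in mouse small intestinal organoids with and without the chromatin remodelling ATPase Smarcad1. The genes were taken by symbol, as every gene of the deposited table whose name starts with the stem of a mucin, a trefoil factor, a CLCA or AGR protein, Fcgbp, Zg16, a SPINK inhibitor, or one of the glycosyltransferase, Chst sulfotransferase and mannosidase families. This gave 13 of the 1420 genes in the table. They comprised 5 genes grouped here as secreted mucus proteins (Agr3, Clca4a, Muc2, Spink4 and Tff3) and 1 membrane mucin (Muc3a). Others were 4 enzymes that start, branch or extend O-glycans (B3gnt7, Galnt2, Gcnt3 and Gcnt4), 2 sialyltransferases (St3gal6 and St6galnac2) and 1 N-glycan enzyme (Mgat4c). Agr3 and Clca4a were placed in the secreted group by symbol only, and these data do not show either to be a part of mucus. In the GENCODE annotation 147 protein-coding genes carry one of these stems, and those outside the table were not analysed here.

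Intestinal mucus is made by goblet cells, which pack the gel-forming mucin Muc2 into granules together with small peptides such as Tff3. The protein core of a mucin carries dense O-linked sugar chains. These chains are started by GalNAc transferases (the Galnt family), branched by Gcnt enzymes, lengthened by enzymes such as B3gnt7 and capped by sialic acid, fucose or sulfate. Membrane mucins instead stay anchored in the brush border of enterocytes.

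Poly(A)-selected RNA of small intestinal organoids was sequenced with strand-specific libraries, 50 bp from each end of a fragment. Organoids are epithelial bodies grown in gel from crypts in medium with EGF, Noggin and R-spondin-1, and about 600 per condition were collected after 5 days. The 3 WT libraries carry the genotype label wild type, and the 3 KO libraries are labelled as Smarcad1 knockouts, all of the C57BL/6 strain. For the KO libraries the genotype label names Vil-Cre, a driver of the intestinal epithelium, whereas the culture protocol and the methods name ZP3-Cre, a driver of the oocyte that deletes the gene in all cells, with littermates as controls. The age of the mice is not given in the sources used here. The labels number the libraries within a group but do not tie them to separate animals, so the p-values measure the spread between these libraries. None of the 10 fibroblast and immune genes that were looked for was in the table, which holds only genes that differed between the groups and so does not show whether such cells were present.

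Values are RPM, reads per 1e+06 reads of a library, at depths of 1.24e+07 to 1.57e+07 reads. A floor of 3 reads corresponded to 0.192 to 0.242 RPM, which covers counting error only, and the lowest count of any of the 13 genes in any library was 17 reads. Smarcad1 was at 105, 94.7 and 96.3 RPM in WT and at 21.7, 21.3 and 24.0 RPM in KO, a log2 change of -2.14 (SE 0.10, limma, adjusted p = 5.59e-05), in the direction of the labels. The table holds only genes picked beforehand by the authors with a test on the same 6 libraries. For that reason 99.9% of the 1420 genes passed at an adjusted p below 0.05, with 52.5% higher and 47.4% lower in KO, and in 98.5% the KO and WT values did not overlap. All 13 mucus and glycosylation genes passed, 9 higher and 4 lower, and none overlapped between the groups. Being listed already fixes nearly all of this, so the counts below are descriptions and no independent evidence of a change. Their median log2 change was 0.61, beside 0.38 for all listed genes, and their median size of change was 0.65, beside 0.64. The exact two-sided permutation test gave p = 0.1 for each of the 13 genes, the smallest value that 3 against 3 libraries allow.

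**Figure D1:**
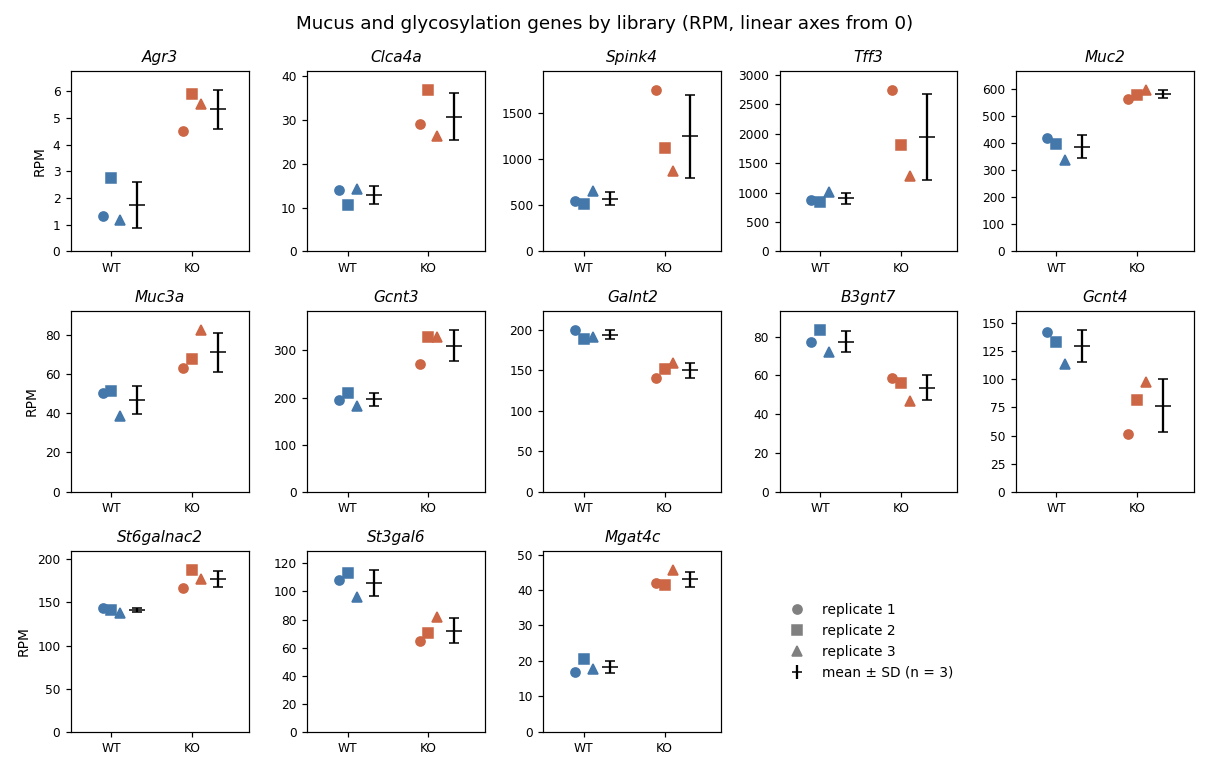
RPM of the 13 genes in each library on linear axes from 0, with WT in blue, KO in orange, a marker shape for each replicate number and bars for the mean ± SD (n = 3). Tff3 and Spink4 spread from 1286 to 2741 and from 873 to 1750 RPM among the KO libraries, whereas Muc2 stayed between 563 and 594 RPM.

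All 5 genes of the secreted group rose, with a median log2 change of 1.07. After removal of a trend of each library with exonic length, described further on, that median was 0.30, and Tff3 (0.22, limma, adjusted p = 0.176) and Spink4 (0.24, adjusted p = 0.120) no longer passed. The most abundant were Tff3, a trefoil peptide of goblet cells, and Spink4, a Kazal-type inhibitor peptide secreted by goblet cells. Tff3 was measured at 875, 832 and 1002 RPM in WT and at 2741, 1814 and 1286 RPM in KO. Its mean went from 903 ± 88.5 to 1947 ± 736 RPM (SD, n = 3 each), and the log2 change was 1.04 (SE 0.27, limma, adjusted p = 0.0108). The KO libraries differed widely among themselves, with replicate 1 at 2.13 times replicate 3, but the lowest of them still lay above the highest WT library. Spink4 stood at 544, 519 and 655 RPM in WT and at 1750, 1120 and 873 RPM in KO. Its log2 change was 1.07 (SE 0.26, limma, adjusted p = 0.00896). KO replicate 1 was again the highest library and replicate 3 the lowest of the KO group. In a bulk sample, more cells of a type and more RNA per cell cannot be told apart, and this holds for each gene below.

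Tff3 and Spink4 moved through the 6 libraries in a nearly fixed proportion. The ratio of Spink4 to Tff3 was 0.621, 0.624 and 0.653 in WT and 0.639, 0.617 and 0.679 in KO. The groups overlapped in this ratio, and as the pair was chosen for its constancy no test is given. Among the other 1419 listed genes, Spink4 was the one whose log2 ratio to Tff3 varied least, with an SD over the 6 libraries of 0.0532, followed by the Paneth cell genes Mmp7 (0.108) and Defa24 (0.108) and by Guca2a (0.116), which encodes guanylin. The median listed gene had an SD of 0.843. The genes for this comparison, and the 4 ratios computed in all, were chosen after their values had been seen, and both genes are short, so they share whatever affects short transcripts.

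The coding sequences of both genes are shown because these peptides accounted for most of the change in the summed level. Capitals mark cysteine codons, which fold trefoil and Kazal domains through disulfide bonds. The sequences were read from GENCODE M21 transcripts on GRCm38. Tff3 lies on the minus strand with its coding part between chr17:31125483-31129576, in 3 exons. It encodes 81 residues, of which 7 are cysteines. Spink4 lies on the plus strand, coding part chr4:40920095-40931302, in 4 exons. It encodes 86 residues, of which 6 are cysteines.
Tff3: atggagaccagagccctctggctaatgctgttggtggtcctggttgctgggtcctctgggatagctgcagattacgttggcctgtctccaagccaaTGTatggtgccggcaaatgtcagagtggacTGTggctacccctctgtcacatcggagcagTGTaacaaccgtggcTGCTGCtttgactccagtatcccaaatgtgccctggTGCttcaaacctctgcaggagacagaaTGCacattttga
Spink4: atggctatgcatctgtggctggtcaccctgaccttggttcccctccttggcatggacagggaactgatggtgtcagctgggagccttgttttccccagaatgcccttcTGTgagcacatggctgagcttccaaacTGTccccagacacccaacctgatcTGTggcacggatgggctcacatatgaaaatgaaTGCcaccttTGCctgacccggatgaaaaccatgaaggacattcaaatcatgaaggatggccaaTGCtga

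Muc2, the gel-forming mucin itself, rose with little spread in KO. Muc2 was at 419, 397 and 337 RPM in WT and at 563, 578 and 594 RPM in KO. The means were 385 ± 42.3 and 579 ± 15.4 RPM (SD, n = 3 each), 1.50 times as high in KO, with a log2 change of 0.60 (SE 0.11, limma, adjusted p = 0.00485) that was 0.30 with the length trend removed. As deposited this change was smaller than those of Tff3 and Spink4, and with the trend removed it was larger than theirs (0.22 and 0.24). The KO libraries differed by a factor of only 1.05. The ratio of Tff3 to Muc2 was therefore not stable. It was 2.09, 2.09 and 2.97 in WT and 4.86, 3.14 and 2.16 in KO, and the groups overlapped. The values of Muc2 cover the plus strand region chr7:141744612-141754693, which is 10082 bp of a gene annotated over 64354 bp and flagged as fragmented, so they describe the end of the gene.

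Clca4a and Agr3 had larger fold changes at far lower levels. Clca4a is a member of the CLCA family (chr3:144952480-144975045, minus strand). Its level was 13.9, 10.5 and 14.3 RPM in WT and 29.1, 36.7 and 26.3 RPM in KO. The log2 change was 1.24 (SE 0.18, limma, adjusted p = 0.00221), and every KO library was well above every WT library. Close family members (Clca4b and Clca4c) may share its reads, and 2 genes annotated on the opposite strand overlap it, so its level is uncertain. Agr3, a protein disulfide isomerase family member (chr12:35925620-35949736, plus strand), was at 1.32, 2.75 and 1.17 RPM in WT and at 4.51, 5.90 and 5.54 RPM in KO. These values rest on 17, 43 and 18 reads in WT and on 56, 86 and 79 reads in KO. As deposited, Agr3 had the highest log2 change of the 13 genes, 1.64 (SE 0.31, limma, adjusted p = 0.00459). With the length trend removed the change of Agr3 was 0.97 (adjusted p = 0.0392), below the 1.35 of Mgat4c. For Agr3, WT replicate 2 stood above the other WT libraries.

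Per length the genes of the secreted group differed by orders of magnitude. In WT, Tff3 had 1832 RPM per kb of counted exon and Spink4 1200, against 131 for Muc2, 4.29 for Clca4a and 1.80 for Agr3. In KO the same levels were 3950, 2616, 198, 10.2 and 5.47 RPM per kb. The order of the 5 genes was the same in both groups.

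Muc3a was the 1 membrane mucin of the table, and it rose too. Muc3a (chr5:137208813-137212389, minus strand) was at 50.0, 51.5 and 38.3 RPM in WT and at 63.0, 67.5 and 82.2 RPM in KO. The log2 change was 0.61 (SE 0.16, limma, adjusted p = 0.0124), and with the length trend removed it was 0.13 and did not pass (adjusted p = 0.530). KO replicate 1 was only moderately above WT replicate 2. The annotation flags this locus as an error of the reference genome and it has a close paralog, Muc3, so reads may be split between them.

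The O-glycan core and extension enzymes did not move together. Gcnt3 rose, while Gcnt4, B3gnt7 and Galnt2 fell, and the median log2 change of the 4 was -0.45. Gcnt3 makes the core 2 and core 4 branches of mucin O-glycans (chr9:70031496-70038088, minus strand). It was at 195, 209.9 and 183 RPM in WT and at 271, 328 and 329 RPM in KO, a log2 change of 0.65 (SE 0.12, limma, adjusted p = 0.00426). KO replicate 1 was the lowest KO library. Relative to Muc2, Gcnt3 stood at 0.467, 0.528 and 0.543 in WT and at 0.482, 0.567 and 0.554 in KO. The groups overlapped in that ratio.

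Gcnt4, a second core 2 branching enzyme (chr13:96924689-96950906, plus strand), went the other way. Gcnt4 was at 142, 133 and 114 RPM in WT and at 51.2, 81.3 and 97.5 RPM in KO, so that its mean fell to 59.1% of WT. The log2 change was -0.80 (SE 0.24, limma, adjusted p = 0.0174), the lowest of the 13 genes. KO replicate 1, the library with the most Tff3, had the least Gcnt4. Without WT replicate 1 the log2 change was -0.74 and limma's adjusted p 0.0523, so the call was lost while the size changed little. Without KO replicate 1 the log2 change was -0.54 (adjusted p = 0.0185). Gcnt3 rose and Gcnt4 fell, so the ratio of Gcnt3 to Gcnt4 separated the groups. This ratio was 1.38, 1.58 and 1.60 in WT against 5.30, 4.04 and 3.38 in KO. This separation follows from the choice of a gene that was higher and a gene that was lower in KO, so it is given with no test.

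B3gnt7 extends O-glycan chains by adding N-acetylglucosamine (chr1:86302832-86307305, plus strand). B3gnt7 fell from 77.3, 83.2 and 71.9 RPM in WT to 58.5, 55.9 and 46.5 RPM in KO, a log2 change of -0.53 (SE 0.13, limma, adjusted p = 0.00855). Galnt2 is one of the enzymes that attach the first sugar of mucin-type O-glycans (chr8:124231391-124345724, plus strand). Galnt2 was at 199.7, 189 and 192 RPM in WT and at 141, 152 and 159 RPM in KO, a log2 change of -0.37 (SE 0.10, limma, adjusted p = 0.0117). Both groups were tight, and the KO mean was 77.6% of the WT mean. A second listed feature, Gm20388, overlaps Galnt2 on the same strand and had almost the same values, 203, 192 and 193 RPM in WT and 142, 154 and 161 RPM in KO, so the same reads may be counted in both.

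The 2 sialyltransferases moved in opposite directions. St6galnac2, which adds sialic acid to the innermost GalNAc of O-glycans (chr11:116675303-116694868, minus strand), was at 143, 141 and 138 RPM in WT and at 167, 187 and 177 RPM in KO. The log2 change was 0.33 (SE 0.09, limma, adjusted p = 0.0146), as deposited the smallest in size of the 13 genes. With the length trend removed it was 0.31, and those of Muc3a (0.13), Tff3 (0.22), Spink4 (0.24) and Muc2 (0.30) were smaller. Without KO replicate 2 the change of St6galnac2 as deposited was 0.29 with an adjusted p of 0.0597, so that call too was lost while the size changed little. St3gal6 adds sialic acid to terminal galactose (chr16:58468125-58524243, minus strand). St3gal6 fell from 108, 113 and 95.9 RPM in WT to 64.6, 70.2 and 81.8 RPM in KO, a log2 change of -0.56 (SE 0.13, limma, adjusted p = 0.00813). Dcbld2, which overlaps St3gal6 on the opposite strand, was listed as well and fell (log2 change -1.41, limma, adjusted p = 0.0117). The libraries mark strand, but the sources used here do not say whether the counting used it. Several other members overlap opposite-strand genes in the same way (B3gnt7, Clca4a, Galnt2, Gcnt4 and St6galnac2), and a second annotated gene of the same name overlaps St6galnac2.

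Mgat4c, of a family of enzymes that branch N-glycans, had the smallest adjusted p of the 13 genes. Mgat4c was at 17.0, 20.4 and 17.6 RPM in WT and at 42.0, 41.4 and 45.5 RPM in KO. The mean went from 18.3 ± 1.80 to 43.0 ± 2.20 RPM (SD, n = 3 each), 2.35 times as high, with a log2 change of 1.23 (SE 0.11, limma, adjusted p = 0.000524). Both groups were tight and far apart. The gene spans chr10:101681487-102391469 on the plus strand, with 10691 bp of counted exon, the longest of the set. Its level per length was therefore low (1.71 RPM per kb in WT and 4.02 in KO). Gm47032, Mir3059 and Gm47031 overlap Mgat4c on the same strand in the annotation, so some of the reads may be theirs.

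**Figure D2:**
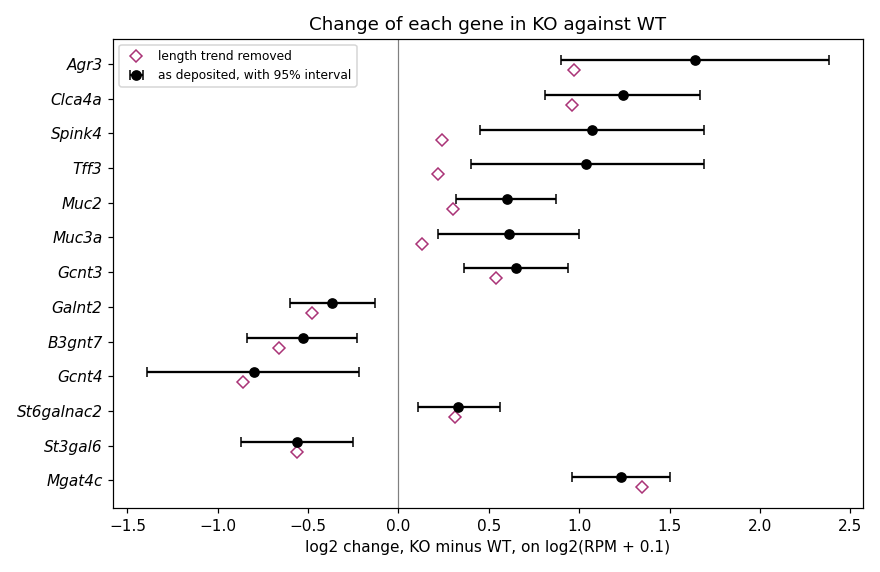
Log2 change of each of the 13 genes in KO against WT on log2(RPM + 0.1), grouped by role, with limma's 95% interval as black bars and, as open diamonds, the change after removal of the trend with exonic length. Spink4 and Tff3 moved most towards 0, from 1.07 to 0.24 and from 1.04 to 0.22, while Mgat4c went from 1.23 to 1.35.

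Upstream sequence was compared for genes that rose and fell. RefSeq's promoter table for GRCm38.p6 held 6 of the 13 genes (Agr3, B3gnt7, Gcnt4, Mgat4c, Muc2 and St3gal6), and no entry was matched for Clca4a, Galnt2, Gcnt3, Muc3a, Spink4, St6galnac2 and Tff3. The 250 bases before the start site nearest to the annotated gene start are printed for 3 genes that rose and for Gcnt4, which fell, since these include the highest and the lowest change of the set. The windows are chr7:141690090-141690339 for Muc2, chr12:35925371-35925620 for Agr3, chr10:101681237-101681486 for Mgat4c and chr13:96924463-96924712 for Gcnt4, all on the plus strand. Capitals mark matches on either strand to any of 5 motifs, which are the TATA box written as TATAAA, the E-box written as CAGCTG, the forkhead motif written as TGTTTAC, the KLF motif written as GGGTGTG and the GC box written as GGGCGG. No 2 of the marked matches overlap within a window.
Muc2: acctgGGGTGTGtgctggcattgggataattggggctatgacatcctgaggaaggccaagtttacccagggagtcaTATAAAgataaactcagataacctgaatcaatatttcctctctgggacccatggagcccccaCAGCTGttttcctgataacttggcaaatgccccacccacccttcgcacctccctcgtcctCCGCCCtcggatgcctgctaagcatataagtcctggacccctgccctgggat
Agr3: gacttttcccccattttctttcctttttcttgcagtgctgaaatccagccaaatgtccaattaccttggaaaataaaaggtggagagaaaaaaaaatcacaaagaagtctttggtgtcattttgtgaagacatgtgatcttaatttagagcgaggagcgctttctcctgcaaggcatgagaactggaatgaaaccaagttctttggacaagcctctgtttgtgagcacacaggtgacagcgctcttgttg
Mgat4c: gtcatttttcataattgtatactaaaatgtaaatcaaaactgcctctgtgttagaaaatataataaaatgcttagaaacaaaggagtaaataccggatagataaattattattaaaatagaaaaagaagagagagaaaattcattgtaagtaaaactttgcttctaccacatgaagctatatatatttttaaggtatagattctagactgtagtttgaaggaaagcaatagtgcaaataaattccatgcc
Gcnt4: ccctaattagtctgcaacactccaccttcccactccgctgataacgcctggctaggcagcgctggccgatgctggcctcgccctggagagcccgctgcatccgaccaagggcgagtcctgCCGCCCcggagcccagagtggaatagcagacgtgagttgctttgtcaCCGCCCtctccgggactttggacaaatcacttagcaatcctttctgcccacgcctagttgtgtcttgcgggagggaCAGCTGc
Of all 32851 windows of that length, 12.4% held the TATA box, 13.0% the E-box, 3.17% the forkhead motif, 6.93% the KLF motif and 32.7% the GC box. Muc2 had 1 match each to the TATA box, the E-box, the KLF motif and the GC box. Gcnt4 had 1 match to the E-box and 2 to the GC box, and neither Agr3 nor Mgat4c had any. B3gnt7 had 1 match to the KLF motif and 2 to the GC box, whereas St3gal6 had none. GC content was 61.2% for Gcnt4 and 61.6% for B3gnt7, above the median window of 52.4%, and 26.8% for Mgat4c and 34.8% for St3gal6, below it. Of the others, Muc2 was at 53.2% and Agr3 at 41.6%. A match describes letters in the window and not a bound site, and the window of Muc2 lies 54272 bp before the region in which its reads were counted. The start site used for B3gnt7 lies 389 bp inside the annotated gene, so its window falls within the gene and not before it.

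Summed over the 13 genes, the level was 2785, 2703 and 2862 RPM in WT and 5947, 4538 and 3804 RPM in KO, 1.71 times as high on average. Tff3, Spink4 and Muc2 made up 66.8% of that sum in WT and 79.2% in KO. The 5 genes of the secreted group together went from 1762 to 2010 RPM in WT to 2786 to 5088 RPM in KO. The 4 core and extension enzymes together did not shift in that way, at 562 to 615 RPM in WT and 522 to 632 RPM in KO. The 2 sialyltransferases summed to 234 to 254 RPM in WT and 232 to 259 RPM in KO. In both enzyme groups the member that rose and those that fell offset each other.

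The KO libraries were not equally affected, and the order differed between genes. KO replicate 1 was the highest KO library for B3gnt7, Spink4 and Tff3 and the lowest for 8 of the 13 genes. Across the whole table the medians of KO replicate 1 against KO replicate 3 fell with exonic length. When the genes with a known length were divided into 4 equal bins, the shortest bin (326 to 2457 bp) held Agr3, Muc3a, Spink4 and Tff3. Not every member followed these medians, since Agr3 and Muc3a of the shortest bin were lowest in KO replicate 1 and B3gnt7, at 4137 bp, was highest there. The median log2 ratio of KO replicate 1 to KO replicate 3 was 0.30 in that bin and -0.32 in the longest (5945 to 41155 bp). The same ratio of WT replicate 1 to WT replicate 3 was -0.07 in the shortest and 0.07 in the longest bin. The share of genes higher in KO fell from 67.7% in the shortest to 41.3% in the longest bin. When a smooth trend with length was removed from each library, the median change of all listed genes shifted from 0.38 to -0.03 and that of the 13 genes from 0.61 to 0.24. All 13 kept their direction. Under that setting Tff3, Spink4 and Muc3a no longer passed in limma, with the values given above. The other 10 still passed, among them Muc2 (0.30, adjusted p = 0.0354), Clca4a (0.96), Agr3 (0.97) and Mgat4c (1.35). The trend was fitted over listed genes only, which were chosen for differing between the groups. Removing it therefore also takes away any difference between the groups that goes with length, whatever its source. The part of length in these changes was not tested.

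**Figure D3:**
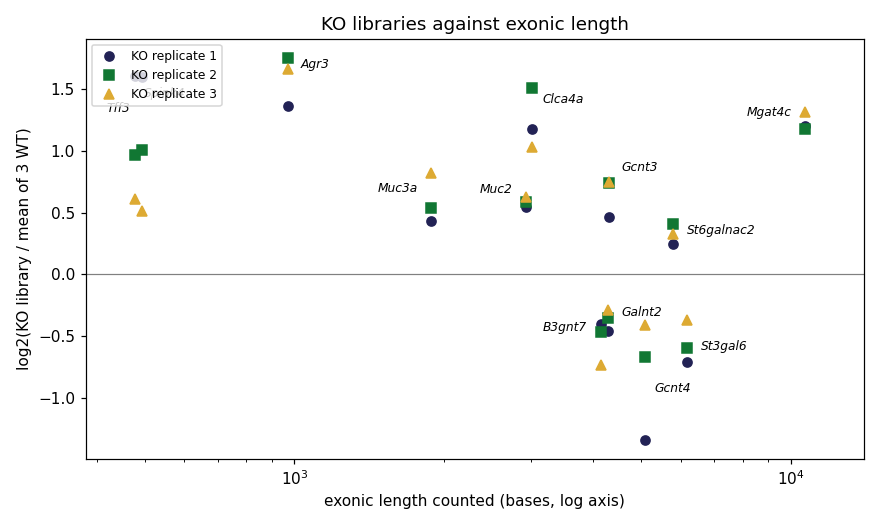
Each KO library's RPM relative to the mean of the 3 WT libraries (log2) for the 13 genes against counted exonic length in bases on a log axis, with a colour and a marker for each KO replicate. KO replicate 1 is the highest point for Tff3 and Spink4, the shortest genes at 493 and 477 bp, and the lowest for Gcnt4 at 5087 bp.

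**Figure D4:**
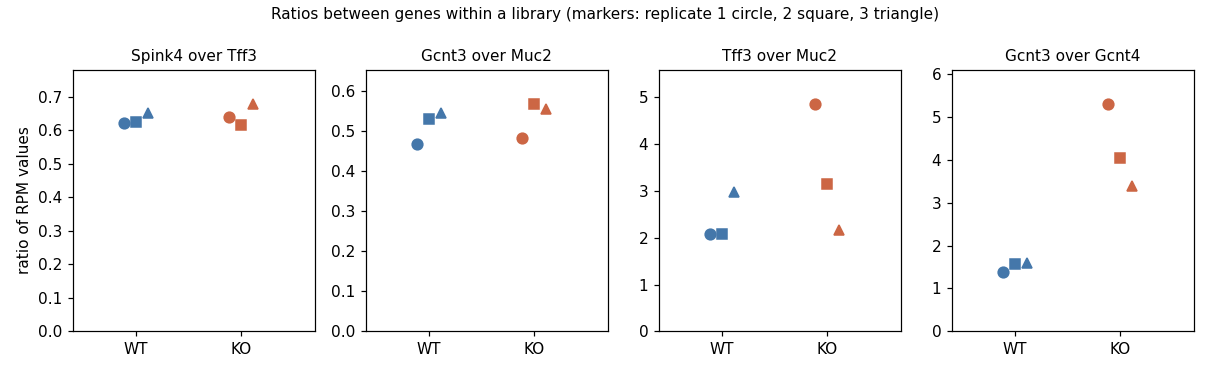
Ratios of RPM values between pairs of genes in each library on linear axes from 0, with WT in blue and KO in orange and a marker shape for each replicate number. The ratio of Spink4 to Tff3 stays between 0.617 and 0.679 in all 6 libraries, whereas Gcnt3 to Gcnt4 runs from 1.38 to 1.60 in WT and from 3.38 to 5.30 in KO.

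Cell type markers moved with these changes. Of 24 goblet cell markers 11 were listed and all were higher. The 8 that are not among the 13 genes summed to 285 to 333 RPM in WT and 424 to 501 RPM in KO. These 8 also belong to the wider goblet cell list below, which holds genes that fell. The Paneth cell list had 18 entries, of which the alpha-defensin entry stood for every listed gene of that family. It gave 22 listed genes, all higher, at 10094 to 11475 RPM in WT and 20970 to 31027 RPM in KO. Mptx2, Pla2g2a and Cd24a of that list were not in the table. Of 19 enteroendocrine markers 9 were listed and higher, at 344 to 392 RPM in WT and 544 to 783 RPM in KO. With the length trend removed the median log2 change of the listed markers went from 0.81 to 0.30 for goblet, from 1.06 to 0.44 for Paneth and from 0.77 to 0.52 for enteroendocrine cells. Of 26 enterocyte markers 19 were listed, 5 higher and 14 lower, with a sum of 24268 to 27547 RPM in WT and 17806 to 19454 RPM in KO. Of 11 tuft cell markers only Dclk1 was listed, and it was lower. No listed marker of these cell types was at 0 in any library, and the part of cell composition in the changes of the 13 genes was not tested.

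Of a list of 32 goblet cell genes outside the 13, 14 were in the table, 11 higher and 3 lower. Their median log2 change was 0.57 (0.19 with the length trend removed). The 8 goblet markers summed above, all higher, are among these 14, so the counts are not separate. None of the 3 lower genes is one of those markers. Tpsg1, a tryptase-like serine protease, rose from 14.6 ± 0.544 to 32.1 ± 8.92 RPM (SD, n = 3 each, log2 change 1.10, limma, adjusted p = 0.00481), with a log2 change of 0.52 once the length trend was removed (adjusted p = 0.0138). Guca2a rose from 267, 247 and 254 RPM to 691, 487 and 343 RPM (0.93, adjusted p = 0.0117), with the KO libraries in the order seen for Tff3, and its log2 change with the length trend removed was 0.14 (adjusted p = 0.347). Fer1l6, of the ferlin family of membrane proteins, rose as well (0.98, adjusted p = 0.00962). Fam129a went against the list and fell from 34.4, 23.1 and 31.2 RPM to 2.90, 8.30 and 11.4 RPM (-2.14, adjusted p = 0.00754). The summed level of the 14 genes fell, from 5307 to 5605 RPM in WT to 4658 to 5053 RPM in KO, so the median and the sum differed in sign. Fam129a, at no more than 34.4 RPM in any library, was too low to account for this fall. The 8 markers and Guca2a rose, so the fall lay mostly among the remaining listed genes, which are Reg4, Ccl9, Dmbt1 and Tspan8. Those were not among the 4 largest changes of the list, and their single values are not given here.

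Of a list of 42 genes of activated sugar and sulfate supply and of amino sugar and sialic acid turnover 7 were in the table, 1 higher and 6 lower, with a median log2 change of -0.63 (-1.03 with the length trend removed), and their summed level was 2084 to 2403 RPM in WT and 1262 to 1609 RPM in KO. Papss2, which makes the sulfate donor PAPS, fell from 555, 463 and 488 RPM to 173, 249.6 and 296 RPM (log2 change -1.10, limma, adjusted p = 0.00465). Ugdh, which makes UDP-glucuronate, fell from 685, 651 and 738 RPM to 349.8, 455 and 535 RPM (-0.65, adjusted p = 0.0112). In both genes KO replicate 1 was the lowest library. Npl, which cleaves sialic acid, fell from 22.8, 22.5 and 23.2 RPM to 7.25, 8.24 and 9.53 RPM (-1.45, adjusted p = 0.000461), and Slc35b1, a nucleotide transporter of the endoplasmic reticulum (ER), fell with a log2 change of -0.63 (adjusted p = 0.00515), or -1.06 with the length trend removed.

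Secreted and membrane proteins pass through the folding machinery of the ER. Of a list of 54 genes of that machinery 23 were in the table, 2 higher and 21 lower, with a median log2 change of -0.46. Ern2, which is on the goblet list too, was 1 of the 2 that were higher. Their sum was 8494 to 9797 RPM in WT and 6125 to 7087 RPM in KO. Ero1l, an oxidase that drives disulfide bond formation, fell from 1079, 943 and 1166 RPM to 250.0, 340.1 and 638 RPM (log2 change -1.48, limma, adjusted p = 0.00710). The KO libraries were widely spread but all below WT. Its relative Ero1lb fell with a log2 change of -0.73 (limma, adjusted p = 0.0179). The call was lost without WT replicate 1 (-0.71, adjusted p = 0.0503), WT replicate 3 (-0.71, 0.0502) or KO replicate 2 (-0.65, 0.0583). The chaperones Hyou1 and Dnajb11 fell with log2 changes of -0.69 (adjusted p = 0.00801) and -0.66 (adjusted p = 0.00470).

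**Figure D5:**
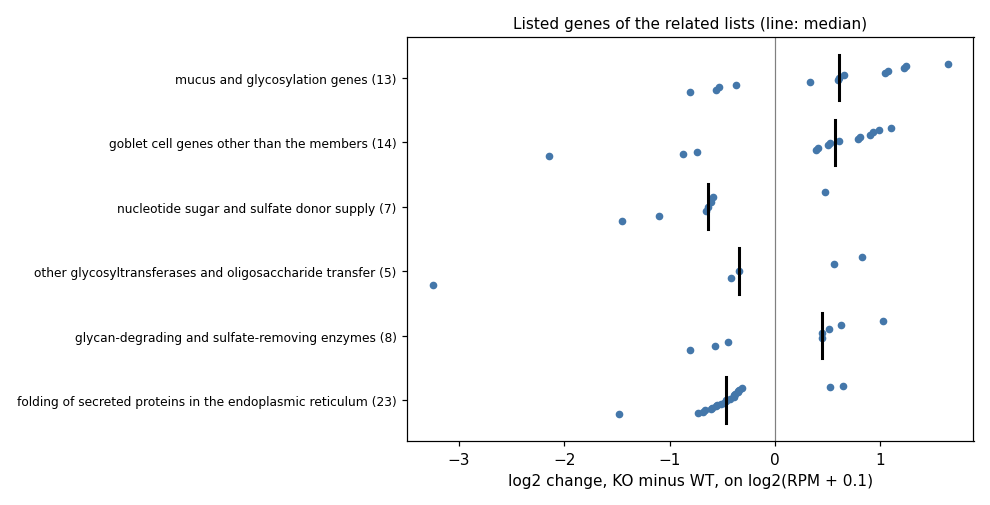
Log2 change in KO against WT on log2(RPM + 0.1) of each listed gene of the mucus and glycosylation set and of 5 related lists, 1 point a gene, with a black line at the median and the number of listed genes in parentheses. The medians of 0.61 and 0.57 for the mucus set and the goblet list lie to the right of 0, and those of -0.63 and -0.46 for donor supply and ER folding lie to the left.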

How the data were processed

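The authors trimmed reads with Trim Galore 0.4.2, mapped them to GRCm38 with HISAT2 2.0.3, counted over exons in SeqMonk and tested with DESeq2. The deposited table gives RPM for 1420 genes that passed the authors' test, and its FDR column (the authors' p-values) was not used. RPM was scaled by the authors to library depth, which was recovered from the step of 1 read: 100.0% of low values were whole within 0.1 read, but too few for a count test. Each gene was tested with limma 3.58.1 (R 4.3.3) on log2(RPM + 0.1), two-sided, without covariates, with Benjamini-Hochberg adjustment over 1420 genes. Fold changes on this scale are understated for low genes. The fit was also run on simulated data in which most genes did not change. This list was chosen for change, so that run says nothing about the calls given here. Single genes had exact permutation tests (scipy 1.17.1). Length came from GENCODE M21, which matched 1397 genes, and the trend was a loess curve (span 0.75) for each library over these genes. Named were every member, Smarcad1 and up to 4 largest changes of each related list. The members and lists were chosen with earlier results of these data known. Alternatives were a replicate block, a filter on the mean, a pseudocount of 1 RPM, centring on the median gene, an intensity trend, stricter thresholds, leaving out each library and length trend removal.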

Additional observations from a re-analysis of the deposited data

How the results depend on the processing

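Of 168 values of the 13 genes under the alternatives, 158 kept direction and call, 10 kept direction only and 0 reversed. Beside the losses given for length and for single libraries, Galnt2, Gcnt4, Muc3a, St6galnac2 and Tff3 missed an adjusted p below 0.01, which left 8 genes (2 lower), and a minimum log2 change of 1 left 5 genes, 5 higher and 0 lower. For all listed genes the stricter p left 845 (346 lower), the minimum change 385 (270 higher and 115 lower), and the filter on the mean 475 higher, since it tests fewer genes. With the length trend removed the medians by role were 0.30 (secreted), 0.13 (membrane), -0.57 (core and extension) and 1.35 (N-glycan). Centring gave -0.54 for core and extension enzymes and 1.14 for Mgat4c, whose change ranged from 1.18 to 1.31 when 1 library was left out. The replicate block kept 13 genes called, 9 higher and 4 lower, and 1351 of all listed genes. Deviations of same-numbered libraries correlated at -0.08, 0.09 and 0.06, and 4 of 6 libraries correlated best with their own number. These values do not settle whether the numbers pair the samples, and the main fit was left unpaired. With an arm left at 2 libraries limma pools the spread over genes. Agr3 was removed by the filter on the mean, and its change was 1.24 with a pseudocount of 1. Depth limits Agr3 most, at 17 reads in its lowest library.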

Other observations

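Enzymes that remove sugars or sulfate were split. Of a list of 39 such genes 8 were in the table, 5 higher and 3 lower, with a median log2 change of 0.45 (0.07 with the length trend removed) and a summed level of 795 to 838 RPM in WT and 804 to 848 RPM in KO. Glb1l, a beta-galactosidase-like protein, rose from 3.19, 3.19 and 2.74 RPM to 6.20, 7.62 and 5.18 RPM (log2 change 1.02, limma, adjusted p = 0.00274), and the sulfatase family member Arsk rose with a log2 change of 0.62 (adjusted p = 0.00697). Neu3, a membrane sialidase, fell from 106, 109 and 114 RPM to 56.5, 67.4 and 64.6 RPM (-0.81, adjusted p = 0.00176). Sulf2, which removes sulfate from heparan sulfate, fell from 223, 229 and 219 RPM to 132, 149 and 173 RPM (-0.57, adjusted p = 0.00683).

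Of 88 other glycosyltransferases and oligosaccharide transfer genes 5 were in the table, 2 higher and 3 lower, with a median log2 change of -0.34. B3glct, which adds glucose to O-fucose, rose from 39.7, 48.9 and 49.0 RPM to 80.3, 80.1 and 81.9 RPM (log2 change 0.82, limma, adjusted p = 0.00215). Poglut1, which adds O-glucose to Notch and other proteins, rose with a log2 change of 0.56 (adjusted p = 0.00379), and Alg9, a mannosyltransferase of the N-glycan precursor, fell with a log2 change of -0.42 (adjusted p = 0.0108). Csgalnact1, which starts chondroitin sulfate chains, fell from 49, 43 and 51 reads to 0, 5 and 13 reads (log2 change -3.24, adjusted p = 0.00871), a size that depends on the pseudocount at so few reads, since it was -1.64 with a pseudocount of 1 RPM and -2.33 without KO replicate 1. The genes in the most constant proportion to Muc2 were Bckdha, Pgghg, Ern2, Sytl2 and Mep1a, with SDs of the log2 ratio over the 6 libraries of 0.0370, 0.0542, 0.0655, 0.0712 and 0.0730, beside a median of 0.564 over 1419 genes, and Gcnt3 came at rank 37 with 0.114. Ern2 and Sytl2 are on the goblet marker list and Mep1a on the enterocyte marker list, and this comparison was chosen after values had been seen.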
